A study of Homo sapiens with 8 samples.

Results

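The genes carried by the mitochondrial genome were examined in MOLM-13, a human acute myeloid leukaemia cell line, after expression of a short hairpin against the circular RNA circMYBL2 (sh-circMYBL2) or of a control hairpin (sh-NC). Members were the 37 of 58302 listed genes whose symbol starts with MT-. They comprise 13 protein-coding genes, 22 tRNA genes and 2 rRNA genes, and 30194 of all listed genes were above 0 in at least 1 library. Each hairpin was profiled by input RNA sequencing, given as FPKM, and by sequencing of ribosome-protected fragments (footprints), given as RPKM. Both units are reads per kilobase of gene and per unit of a library's scaling total. There were 2 libraries per hairpin and assay, 8 in all, and all came from the same line under no further treatment named in the labels. Whether replicate libraries derive from independent cultures is not stated in the labels, so p-values measure only the spread between these libraries, which may be technical. The names of the sh-circMYBL2 footprint columns give no replicate number, and these libraries are called a and b. Counts were per gene, so the level of the circular RNA itself was not read from these tables and the knockdown was not checked here.

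Human mitochondrial DNA is a small circle that is read on both strands as long primary transcripts. Most mRNAs and rRNAs lie between tRNA genes, and excision of the tRNAs releases them. The heavy-strand transcript yields both rRNAs, most tRNAs and every mRNA except MT-ND6, which comes from the light-strand transcript together with the remaining tRNAs. The mRNAs are translated by ribosomes inside the organelle, built on the mitochondrial rRNAs, and their products are core subunits of complexes I, III and IV of the respiratory chain and of ATP synthase. Complex II and all other subunits are encoded in the nucleus. By biotype and complex the members were 7 mRNAs of complex I, 1 of complex III, 3 of complex IV and 2 of ATP synthase, and by strand 12 mRNAs were heavy and 8 tRNAs light.

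Input RNA libraries held between 13501743 and 14600090 reads on genes, recovered from the FPKM values. Footprint libraries were far smaller and uneven, with 80134 and 300340 reads on genes in sh-NC libraries 1 and 2 and 222809 and 714949 in sh-circMYBL2 libraries a and b. Genes of microRNAs took 42.7% and 57.2% of the sh-NC footprint reads and 32.8% and 12.2% of the sh-circMYBL2 ones, and 33705, 88682, 125741 and 584098 reads fell on protein-coding genes in the same order. The labelled cell type was checked against its markers: all 10 myeloid genes reached a mean of 1 FPKM, with summed levels of 864 and 824 FPKM in sh-NC and 1052 and 1009 FPKM in sh-circMYBL2. None of 4 erythroid, 4 lymphoid and 4 adherent-cell genes reached that mean, and their summed levels stayed at or under 0.0732, 0.217 and 0.455 FPKM in every library.

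Heavy-strand mitochondrial mRNAs were lower in input RNA with sh-circMYBL2. Reads on the 12 heavy-strand mRNAs made up 6.29% and 6.07% of protein-coding input reads in the sh-NC libraries against 3.19% and 2.95% in the sh-circMYBL2 libraries, so the groups did not overlap. All 12 fell in limma's moderated test on log2(FPKM + 1), with log2 changes of -1.66 to -0.65 and Benjamini-Hochberg adjusted p between 0.00720 and 0.0350. Over all 35 members tested, 16 fell and 3 rose at an adjusted p under 0.05, against 3.96% and 4.92% of the 12489 genes tested. The median log2 change of the 13 mRNAs was -1.30, against -0.0037 over all genes. In 22 members both sh-circMYBL2 libraries lay below both sh-NC libraries and in 6 both lay above, where the background was 30.7% and 30.0%. No member and no gene passed the threshold when any 1 of the 4 input libraries was left out, which left the adjusted p of the heavy-strand mRNAs between 0.0800 and 0.152; all 12 stayed below 0 in each of these fits. In bulk RNA of this kind, fewer cells with a transcript and less of it per cell cannot be told apart.

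**Figure D1:**
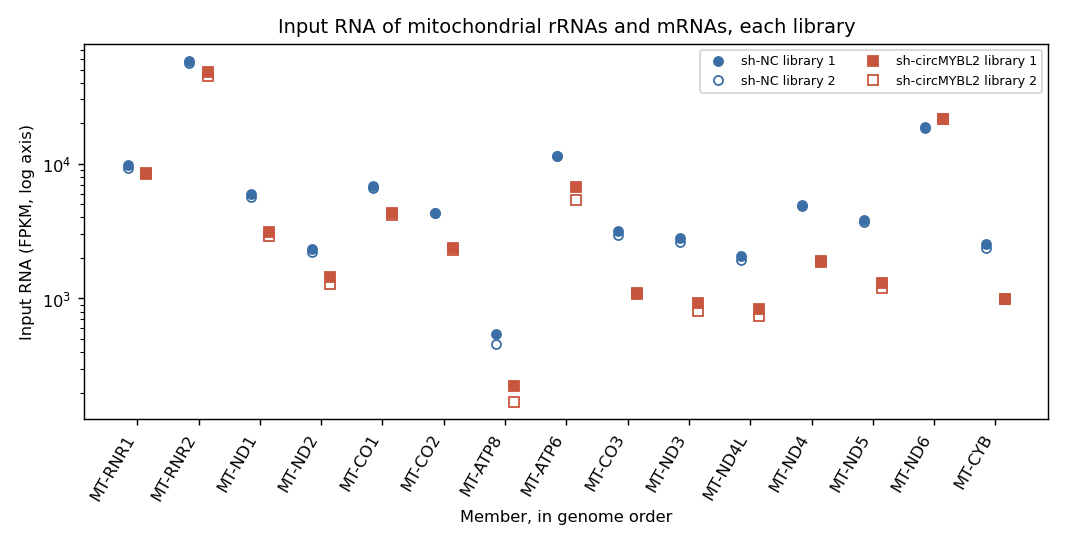
Input RNA in FPKM (log axis) of the 2 mitochondrial rRNAs and 13 mRNAs, in genome order, with 1 point for each of the 4 input libraries. The sh-circMYBL2 points lie below the sh-NC points for all 12 heavy-strand mRNAs, while those of MT-ND6 lie above, at 21401 and 21457 against 18272 and 18749 FPKM.

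Complex I, the NADH dehydrogenase that passes electrons to ubiquinone, held the mRNAs with the 2 steepest falls. MT-ND3 (chromosome MT, 10059-10404) had 2830 and 2605 FPKM with sh-NC and 920 and 802 FPKM with sh-circMYBL2, a log2 change of -1.66 (SE 0.09). MT-ND5 (12337-14148) went from 3842 and 3725 FPKM to 1306 and 1196 FPKM, a change of -1.60 (SE 0.06). MT-ND4 (10760-12137) had 4936 and 4856 FPKM against 1882 and 1859 FPKM, a change of -1.39 (SE 0.05). For these genes both sh-circMYBL2 values were under both sh-NC values. MT-ND4L (10470-10766), which overlaps the start of MT-ND4, had 2081 and 1929 FPKM against 836 and 747 FPKM, a change of -1.34 (SE 0.08). Falls were smaller for the pair nearest the rRNA genes. MT-ND1 (3307-4262) went from 5945 and 5672 FPKM to 3103 and 2918 FPKM, a change of -0.95 (SE 0.06). MT-ND2 (4470-5511) went from 2316 and 2228 FPKM to 1452 and 1276 FPKM, a change of -0.74 (SE 0.08). The seventh subunit, MT-ND6, is on the other strand and is described with the light-strand transcripts.

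Complex III receives electrons from ubiquinol, and its only mitochondrially encoded subunit is cytochrome b. The cytochrome b mRNA, MT-CYB (14747-15887), had 2536 and 2369 FPKM with sh-NC and 996 and 998 FPKM with sh-circMYBL2, a log2 change of -1.30 (SE 0.05, limma adjusted p = 0.00720). Complex IV, cytochrome c oxidase, reduces oxygen with the metal centres held by MT-CO1 and MT-CO2. MT-CO1 (5904-7445) had 6808 and 6570 FPKM against 4342 and 4178 FPKM, and its change of -0.65 (SE 0.06) was the smallest of the heavy-strand mRNAs. MT-CO2 (7586-8269) went from 4289 and 4332 FPKM to 2382 and 2274 FPKM, a change of -0.89 (SE 0.05). MT-CO3 (9207-9990), a core subunit without metal centres, went further, from 3142 and 2952 FPKM to 1089 and 1075 FPKM, a change of -1.49 (SE 0.05). The 95% intervals of the changes of MT-CO1 (-0.82 to -0.48) and MT-CO3 (-1.63 to -1.35) did not overlap.

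ATP synthase uses the proton gradient to make ATP, and MT-ATP6 and MT-ATP8 encode subunits of its membrane part from overlapping reading frames. MT-ATP6 (8527-9207) was the most abundant heavy-strand mRNA, with 11351 and 11414 FPKM in sh-NC and 6766 and 5391 FPKM in sh-circMYBL2. The 2 sh-circMYBL2 libraries lay further apart than the 2 sh-NC ones, and the log2 change was -0.91 (SE 0.13, limma adjusted p = 0.0350). MT-ATP8 (8366-8572) was the lowest mRNA, with 543 and 456 FPKM against 224 and 170 FPKM, a change of -1.35 (SE 0.17). How reads in the stretch shared by both genes were assigned is not given in the sources used here, so values of the overlapping pairs, MT-ATP8 with MT-ATP6 and MT-ND4L with MT-ND4, are uncertain to that extent.

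The size of the fall varied along the heavy strand. The 4 mRNAs that precede MT-ATP8 (MT-ND1, MT-ND2, MT-CO1 and MT-CO2) changed by -0.95 to -0.65 on the log2 scale, and the 8 from MT-ATP8 onwards by -1.66 to -0.91. Reads on the later 8 outnumbered those on the first 4 by 1.33 and 1.33 times in the sh-NC input libraries, whereas the ratio was 0.951 and 0.901 with sh-circMYBL2. The groups did not overlap in this ratio. In footprints they did, at 1.81 and 1.25 with sh-NC against 1.77 and 1.47 in sh-circMYBL2 libraries a and b. Across the 12 genes, distance from the start of MT-TF, the first gene after the control region, correlated with the log2 change at Pearson's r = -0.69 and Spearman's rho = -0.65. These are descriptions across genes that share a transcript and the same 4 libraries. Where the split was placed was chosen after the values were seen.

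**Figure D2:**
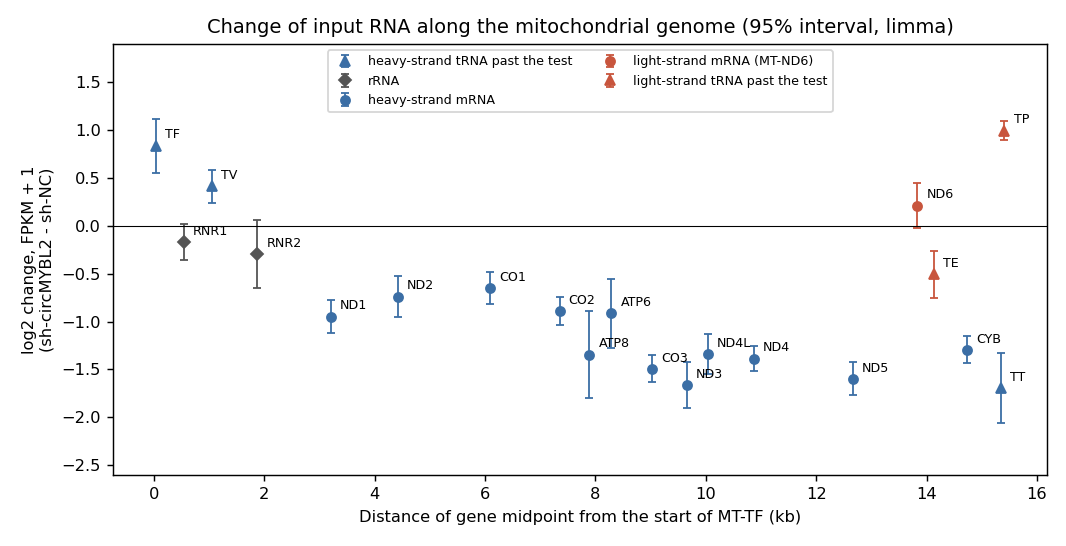
Log2 change of input RNA (sh-circMYBL2 minus sh-NC, on FPKM + 1) against the distance of the gene's midpoint from the start of MT-TF in kilobases, with bars for limma's 95% interval. The heavy-strand mRNAs run from -0.65 for MT-CO1 to -1.66 for MT-ND3, and MT-TP stands at 1.0. Of the tRNAs, only those with a limma adjusted p under 0.05 are drawn. MT-TC and MT-TH, which rest on 8 and 6 input reads in all, are also left out.

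The rank order of levels per length differed between the hairpins. With sh-NC the order ran from MT-RNR2 through MT-ND6, MT-ATP6, MT-RNR1, MT-CO1, MT-ND1, MT-ND4, MT-CO2, MT-ND5, MT-CO3, MT-ND3, MT-CYB, MT-ND2 and MT-ND4L to MT-ATP8, and in none of its 14 neighbouring pairs did the libraries overlap. With sh-circMYBL2, MT-RNR1 stood above MT-ATP6 and MT-CO2 above MT-ND4. MT-ND2 stood at rank 13 with sh-NC and at rank 9 with sh-circMYBL2. Its libraries overlapped there with those of MT-ND5, as did those of MT-ND3 with MT-ND4L, the only such pairs of 14.

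The light-strand mRNA stood apart from the other mRNAs. MT-ND6 (14149-14673, ENSG00000198695), a membrane subunit of complex I, had 18272 and 18749 FPKM with sh-NC and 21401 and 21457 FPKM with sh-circMYBL2. Both sh-circMYBL2 values were above both sh-NC values, with means of 18511 ± 337 and 21429 ± 39.3 FPKM (SD, n = 2), a fold of 1.16. The log2 change of 0.21 (SE 0.09, 95% interval -0.03 to 0.45) did not pass limma's test on FPKM, with an adjusted p of 0.208. With voom on the recovered reads, which called 1556 of 12489 genes lower and 1691 higher, MT-ND6 passed (0.21, limma adjusted p = 6.04e-10). Its share of the reads on the 13 mRNAs was 16.1% and 16.8% in sh-NC against 31.0% and 32.8% in sh-circMYBL2. The strand setting of the counting is not given in the sources used here, so reads from MT-ND6 and from the heavy-strand transcript that runs opposite to it cannot be told apart, and the same holds for the tRNA genes of either strand.

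**Figure D3:**
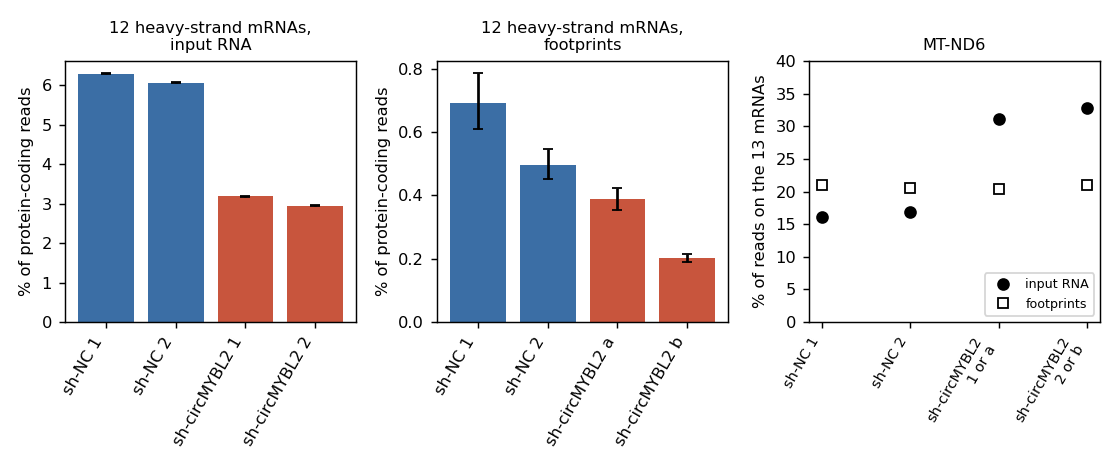
Percent of protein-coding reads on the 12 heavy-strand mRNAs in input RNA and in footprints, and MT-ND6 as a percent of the reads on all 13 mitochondrial mRNAs, 1 mark per library. Wilson 95% intervals for counting error are drawn on the heavy-strand shares only. The heavy-strand share is lower in both sh-circMYBL2 libraries in either assay, and the MT-ND6 share is 31.0% and 32.8% in sh-circMYBL2 input RNA but between 20.4% and 21.0% in all footprint libraries.

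The rRNAs, which form the core of the small (MT-RNR1) and large (MT-RNR2) subunits of the mitochondrial ribosome, did not pass the test on FPKM. MT-RNR2 (1671-3229) was the most abundant member, with 57791 and 55947 FPKM in sh-NC and 48228 and 44532 FPKM in sh-circMYBL2, a log2 change of -0.30 (SE 0.13, limma adjusted p = 0.228). MT-RNR1 (648-1601) had 9700 and 9285 FPKM against 8348 and 8529 FPKM, a change of -0.17 (SE 0.07, limma adjusted p = 0.206). For either gene both sh-circMYBL2 libraries were below both sh-NC libraries. With voom on the recovered reads both were called lower, as were 1556 of the 12489 genes tested. The changes there were -0.30 for MT-RNR2 (limma adjusted p = 3.12e-12) and -0.17 for MT-RNR1 (limma adjusted p = 3.39e-07). The labels' protocols include a kit that depletes rRNA, so these levels are those left after depletion. Together all members took 15.7% and 15.2% of sh-NC input reads against 12.2% and 11.5% of sh-circMYBL2 ones, of which the rRNAs made up 9.79%, 9.47%, 8.46% and 7.99% of all input reads in that order. Wilson 95% intervals of the input shares given here were at most 0.0194 percentage points to either side and cover counting error only.

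The tRNAs carried few input reads, between 0.0133% and 0.0159% of a library, and they did not move as a class. Of 20 tested, 4 fell and 3 rose, against 3.96% and 4.92% of all genes, and their median log2 change was -0.24. MT-TP, the light-strand tRNA for proline, was the most abundant, with 475 and 458 FPKM in sh-NC and 929 and 934 FPKM in sh-circMYBL2, a log2 change of 1.0 (SE 0.04, limma adjusted p = 0.00720). Its neighbour on the heavy strand is MT-TT, the tRNA for threonine, which had 181 and 220 FPKM against 55.7 and 66.8 FPKM, a change of -1.69 with a limma adjusted p of 0.0136. So the values of this adjacent pair on opposite strands moved in opposite directions, though the strand setting of the counting is not given. The tRNAs as a whole showed no such split by strand. Of 8 light-strand tRNAs tested 2 fell and 1 rose, with a median log2 change of -0.23. Of 12 heavy-strand tRNAs 2 fell and 2 rose, with a median of -0.24. MT-TE, the light-strand tRNA for glutamate beside MT-ND6, had 374 and 315 FPKM against 239 and 244 FPKM, a change of -0.51 with a limma adjusted p of 0.0497. This call was lost with a pseudocount of 0.1 (adjusted p = 0.0501) and when scaled to nuclear protein-coding reads (adjusted p = 0.0519).

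Outside the most abundant tRNAs, both tRNAs that flank MT-RNR1 rose on the FPKM scale. MT-TF, the tRNA for phenylalanine ahead of MT-RNR1, had 31.8 and 26.4 FPKM in sh-NC and 54.8 and 50.4 FPKM in sh-circMYBL2, a log2 change of 0.84 (limma adjusted p = 0.0270). MT-TV, the tRNA for valine between the rRNA genes, had 43.6 and 43.3 FPKM against 61.6 and 54.9 FPKM, a change of 0.41 (limma adjusted p = 0.0402), a call that was lost with voom on the recovered reads (adjusted p = 0.214). The remaining calls were MT-TC and MT-TH, for cysteine and histidine, with 8 and 6 reads over both sh-NC libraries and none with sh-circMYBL2. Against a floor of 3 reads over the sh-circMYBL2 group, the sh-NC levels were 2.74-fold and 2.05-fold higher. These folds take the sh-NC reads as exact and are not lower bounds. MT-TA, MT-TQ and MT-TL1, for alanine, glutamine and leucine, changed by 0.12, 0.05 and -0.24 on the log2 scale and were not called. MT-TV and MT-TC were named after their values were seen.

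Reads from mitochondrial DNA can also be assigned to its old copies in the nuclear genome. Of 392 listed copies, 26 were tested in input RNA, 4 fell and none rose, with a median log2 change of -0.19. Over all genes tested, 3.96% fell and 4.92% rose. The most abundant was MTATP6P1, a near-identical copy on chromosome 1 (633696-634376 in RefSeq's GRCh38.p14), at 2313 ± 7.14 FPKM with sh-NC and 1123 ± 27.3 FPKM with sh-circMYBL2 (SD, n = 2), a change of -1.04. The others were MTND2P28 at -0.67, MTND4P12 at -1.04 and MTCO1P12 at -0.72. How the counting treated reads that match several places is not given in the sources used here, so values of these copies and of MT-ATP6, MT-ND2, MT-ND4 and MT-CO1 may hold part of each other's reads.

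Nuclear genes that make and handle mitochondrial RNA were read in the same input libraries, where 3.96% of all genes were called lower and 4.92% higher. The counts of these lists were near those shares. Among 9 genes for transcription of mitochondrial DNA, TFB1M, an rRNA methyltransferase related to the transcription factor TFB2M, fell from 31.9 to 26.8 FPKM on average, a log2 change of -0.24, and none rose. The RNA polymerase POLRMT was at 0.22 (limma adjusted p = 0.186), and the DNA-packaging factor TFAM at -0.07. For replication and upkeep of the DNA, 14 genes were tested: RRM2B, a subunit of ribonucleotide reductase, fell by 0.25, and TK2, the mitochondrial thymidine kinase, rose by 0.33. Of 19 genes for RNA processing and decay, only PNPT1, the mitochondrial polynucleotide phosphorylase, passed, with a change of -0.25. GUF1, a GTPase of the elongation factor type, fell by 0.32 among 12 translation factors, and none of 6 biogenesis regulators was called. Medians of these 5 lists ran from -0.08 to 0.02, near that of all genes.

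None of the nuclear-encoded partners of the same complexes fell, where 3.96% of all genes did, which in lists of 9 to 35 genes is few or none; 4.92% of all genes rose. Of 35 tested genes listed by NDUF symbol as nuclear subunits of complex I, NDUFA4 included, none fell and NDUFA10 rose by 0.21, with a median of 0.06. In complex III 1 of 9 rose (UQCRC1, 0.50), in complex IV 2 of 10 (COX4I1, 0.32, and COX5B, 0.31), and in ATP synthase 3 of 15 (listed as ATP5A1, 0.38, ATP5F1, 0.28, and ATP5L, 0.24), and in none of these lists did a gene fall. Their medians were 0.12, 0.09 and 0.13. None of the 4 subunits of complex II, which has no mitochondrially encoded part, was called, and their median was 0.06.

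In footprints the mitochondrial mRNAs were lower with sh-circMYBL2 relative to protein-coding reads, but no member passed the test. The 12 heavy-strand mRNAs took 0.691% (Wilson 95% interval 0.608% to 0.786%) and 0.497% (0.453% to 0.546%) of protein-coding footprint reads with sh-NC. With sh-circMYBL2 they took 0.388% (0.355% to 0.424%) and 0.202% (0.190% to 0.214%). The groups did not overlap, although the libraries of each group differed by more than counting error. As a share of all reads on genes, microRNA genes included, all 13 mRNAs took 0.368% and 0.185% against 0.275% and 0.208%, and there the groups overlapped. The part of the uneven depth and of the microRNA reads in these differences was not tested.

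Of 29 members tested in footprints, limma called none at an adjusted p under 0.05, 2 (MT-CO1 and MT-ATP8) had an unadjusted p under 0.05, and voom on the recovered reads called none, with 4 at an unadjusted p under 0.05. Over all 9431 genes limma called 0% in either direction, and 12.9% had an unadjusted p under 0.05. Voom called 54 of these genes and put 1296 at an unadjusted p under 0.05. Both sh-circMYBL2 libraries were below both sh-NC libraries for 8 of the 13 mRNAs and 10 of the 29 members, and above for none, where the background was 10.9% and 30.7%. The median log2 change of the mRNAs was -0.69, against 0.56 over all genes. Among genes above 0 in every footprint library, it was -0.85 for 11 mRNAs and -0.01 over 4438 genes. Quantile normalization turned the mRNA median to 0.23, and 2 libraries against 2 cannot give an exact two-sided permutation p below 0.33.

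Footprints of complex I members were led by MT-ND6, at 1436 and 1170 RPKM in sh-NC and 920 and 534 RPKM in sh-circMYBL2 libraries a and b. MT-ND4 had 600 and 223 RPKM against 149 and 95.2 RPKM, and MT-ND1 369 and 344 RPKM against 246 and 157 RPKM. These genes and MT-ND2, at 81.7 and 56.9 against 51.9 and 23.3 RPKM, did not overlap between the hairpins. MT-ND5, at 295 and 214 against 292 and 115 RPKM, did overlap. So did MT-ND4L, at 164 and 345 against 247 and 96.8 RPKM. MT-ND3 rested on 0, 19, 14 and 19 reads in the same library order. The count of 0 in sh-NC library 1 allows up to 105 RPKM (3 reads), below the 296 RPKM of sh-NC library 2, so the sh-NC libraries differed for this gene.

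The other complexes showed a similar mix. MT-CYB had 309 and 203 RPKM in sh-NC against 186 and 129 RPKM in sh-circMYBL2, and MT-CO1 276 and 311 RPKM against 160 and 114 RPKM; for both genes the groups did not overlap. MT-CO2, at 213 and 276 against 209 and 114 RPKM, was also without overlap, by a narrow margin. MT-CO3 had 46.5 and 192 RPKM against 113 and 105 RPKM, with the lowest and the highest value both in sh-NC. The ATP synthase mRNAs were close to undetected: MT-ATP6 had 0, 5, 10 and 13 reads and MT-ATP8 2, 2, 1 and 2 reads. MT-ATP6, the most abundant heavy-strand mRNA in input RNA, thus had fewer assigned footprint reads than any other mRNA except MT-ATP8. Its near-identical nuclear copy MTATP6P1 was assigned 0, 1, 6 and 6 footprint reads in that library order. How footprints that match both places were counted is not given in the sources used here. Whether this lowered the count of MT-ATP6 was not tested.

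**Figure D4:**
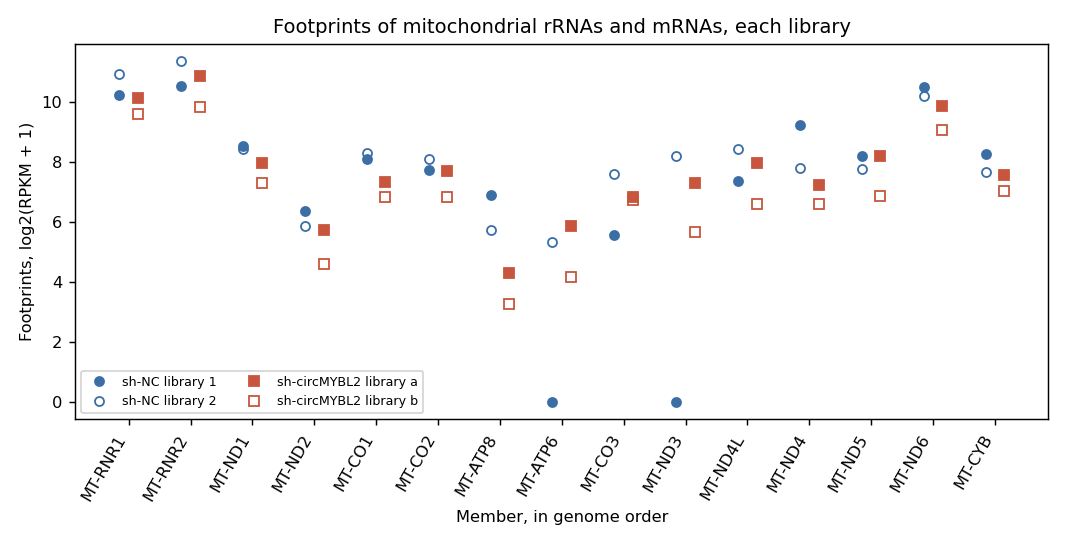
Footprints as log2(RPKM + 1) of the 2 mitochondrial rRNAs and 13 mRNAs in genome order, 1 point per footprint library. Points of the same hairpin spread more than in input RNA, and MT-ATP6 and MT-ND3 are at 0 in sh-NC library 1.

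Summing the reads of both libraries of a group and dividing by their scaling totals gave a ratio of sh-circMYBL2 to sh-NC of 0.485 for MT-ND6 in footprints (95% counting interval 0.406 to 0.581), against 1.16 in input RNA. For the 12 heavy-strand mRNAs together the ratio was 0.483 (0.441 to 0.528) in footprints and 0.486 in input RNA. The rRNAs gave 0.486 (MT-RNR1) and 0.477 (MT-RNR2) in footprints and 0.890 and 0.815 in input RNA. Intervals of 11 of the 13 mRNAs lay wholly under 1 in footprints, against 14.6% of the 9431 genes tested, and none lay wholly above 1, against 18.8%. Those of MT-CO3 (0.724, 0.483 to 1.11) and MT-ATP6 (0.898, 0.334 to 3.02) included 1. Library b carried much of these ratios: without it they were 0.749 for the heavy-strand mRNAs, 0.735 for MT-ND6 and 0.813 for MT-RNR2. Without sh-NC library 2, the ratio of MT-RNR2 was 0.737. The closeness of 0.483 to the input value therefore depends on library b. These sums weight the deeper library of each group more, the intervals cover counting error and not the spread between libraries, and this ratio was added after the data were seen. The scaling totals of the footprint libraries, 82265, 185632, 258923 and 1113399 reads, were not proportional to their reads on genes. Fragments of rRNA in a footprint library can come from the ribosome itself and need not be translated RNA.

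Footprints over input RNA, as a measure of ribosome occupancy per transcript (translational efficiency), were tested as the interaction of hairpin and assay over all 8 libraries. The 28 members tested were 13 mRNAs, 13 tRNAs and 2 rRNAs, and only for the mRNAs can the ratio describe translation. None of the 28 was called by limma, and none had an unadjusted p under 0.05, where 1618 of all 8260 genes did. Voom on the recovered reads called no member. It put 5 members at an unadjusted p under 0.05, where 2094 of all 8260 genes were. Over all 8260 genes, limma called 0.266% lower and 5.05% higher. MT-ND6 had a log2 change of efficiency of -1.10 (SE 0.55, limma adjusted p = 0.358). The largest positive values among mRNAs with footprint reads in every library were those of MT-CO3, 1.69 (adjusted p = 0.382), and MT-ND5, 1.15 (adjusted p = 0.431). The median of the 13 mRNAs was 0.24, against 0.57 over all genes. Among genes above 0 in every footprint library it was 0.10 for 11 mRNAs and 0.03 over 4200 genes. Leaving out sh-NC footprint library 1 or 2, or sh-circMYBL2 footprint library a or b, gave 2, 7, 2 and 3 of 28 members called, where 36.8%, 59.3%, 13% and 12.2% of all genes were. MT-ND6 was among those called without library a, at -1.49, where the heavy-strand mRNAs ran from -1.69 to 3.21. Heavy-strand mRNAs were among those called without sh-NC library 2 and without library b.

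RPKM of each footprint library over the mean input FPKM of the same hairpin was lower for the mitochondrial mRNAs than for the median nuclear mRNA. Its median over the 13 was 0.0635 and 0.0631 in sh-NC libraries against 0.0897 and 0.0509 in sh-circMYBL2 libraries. Over 3175 nuclear mRNAs of at least 10 FPKM in sh-NC it was 0.310 and 0.435, and over 3205 in sh-circMYBL2 it was 0.548 and 0.627. All 13 lay below the nuclear median in every library. The tables were scaled separately, so this ratio is on an arbitrary scale and orders genes only within a library. Mitochondrial mRNAs are translated by ribosomes inside the organelle. Whether footprints of these and of other ribosomes were recovered alike was not tested.

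Mitochondrial tRNA genes gave footprint-library reads in a pattern unlike that of input RNA. MT-TS2, a tRNA for serine, had 89 and 423 reads in sh-NC and 690 and 789 in sh-circMYBL2 libraries a and b, with only 16 to 33 reads per input library. MT-TF had 16, 322, 296 and 471 footprint reads and MT-TT 9, 86, 179 and 248 in the same order. These 3 genes held 73.5%, 91.0%, 88.7% and 89.1% of the tRNA reads. MT-TP had 17 to 64 reads, MT-TH 19 to 39 and MT-TM, the tRNA for methionine, 1 to 29. No footprint read was assigned to 8 tRNAs in any library, 4 of which had at least 100 input reads in all, among them MT-TA with 1219 and MT-TL1 with 771. Just 7 tRNAs were above 0 in all 4 footprint libraries. The tRNA share of footprint reads was 0.193% and 0.304% in sh-NC libraries against 0.589% and 0.237% in sh-circMYBL2 libraries, so the groups overlapped.

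**Figure D5:**
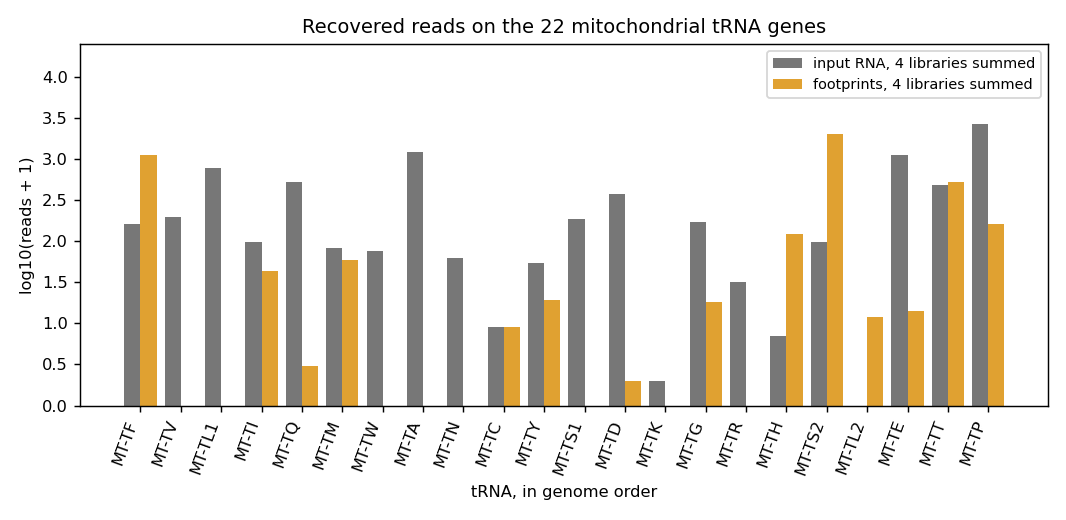
Recovered reads on the 22 mitochondrial tRNA genes, as log10(reads + 1), in genome order, with bars for the 4 input libraries summed and the 4 footprint libraries summed. MT-TS2, MT-TF and MT-TT hold most footprint reads, while MT-TA and MT-TL1, with 1219 and 771 input reads in all, have none.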

How the data were processed

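Input RNA values were deposited by the authors as FPKM and footprint values as RPKM, per the file headers; the submitters' processing notes name cutadapt, Bowtie, HISAT2, featureCounts, DESeq2 and hg38, with no versions or roles. The labels' protocols name depletion of rRNA by kit and libraries built with a kit for small RNAs. Reads and scaling totals were recovered from the values with RefSeq gene lengths (GRCh38.p14): every member value above 0 was whole within 0.02 reads, while reads of other genes were recovered slightly less completely. Groups came from the labels.

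Each table was tested with limma 3.58.1 in R 4.3.3 (trended empirical Bayes) on log2(value + 1), over genes with a mean of at least 1, with Benjamini-Hochberg adjustment over all genes tested and a threshold of 0.05. Fold changes on this scale understate the change of low genes. Translational efficiency was the interaction over all 8 libraries; footprints vary more than input RNA and share its estimate of spread there, so its p-values are approximate. Scripts were tested on simulated data. Alternatives were other pseudocounts (0.1 and 5), filters, quantile normalization, scaling to nuclear protein-coding reads, voom on recovered reads, a replicate block and leaving out each library.

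Members and lists were chosen with earlier results of these data known. All mRNAs and rRNAs are named; of the tRNAs, the 6 with the highest mean FPKM and the 6 with most footprint reads; of other lists, up to 4 genes by smallest p in input RNA. List symbols were matched through gene identifiers. The numbers of the input libraries were checked as pairs. Across the 12489 genes tested, the deviations of same-numbered libraries correlated at 0.0265, so the libraries were not treated as pairs. The members alone were not checked in this way. No mitochondrial sequence was used here.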

Additional observations from a re-analysis of the deposited data

How the results depend on the processing

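In input RNA all 12 heavy-strand mRNAs stayed below 0 in every setting tried. They numbered 12 called with either other pseudocount, a filter at 5, scaling to nuclear protein-coding reads or voom, 9 under quantile normalization (which ties the top-ranked gene to one value) and 3 with no filter. With no filter 41 genes were lower and 56 higher, and 3 members lower and 1 higher. Voom gave 1556 genes lower and 1691 higher. The genes lower and higher were 479 and 581 with a pseudocount of 0.1, and 497 and 616 with 5. With the filter at 5, over a smaller set of genes tested, they were 593 and 664. Quantile normalization gave 507 and 596, and scaling to nuclear protein-coding reads 538 and 565. With the replicate block, 0 genes and 0 members were called in either direction (adjusted p of the heavy-strand mRNAs 0.0502 to 0.0794). Leaving out 1 input library, with the remaining one of its group assumed to vary like the other group, called 0 genes and 0 members, with mRNA medians from -1.35 to -1.14; the quantile median was -0.89. MT-TA turned to -0.0440 and -0.12 without sh-NC library 2 or sh-circMYBL2 library 1, and MT-TQ ranged from -0.18 (without sh-circMYBL2 library 2) to 0.28. Voom also called MT-ND6, MT-RNR1 and MT-RNR2 and did not call MT-TV, with 20 members lower and 3 higher. Without histone and ribosomal protein genes the mRNA share of protein-coding input reads was 8.25% and 8.04% against 5.09% and 4.86%.

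For footprints, shares without microRNA genes were 0.642%, 0.431%, 0.409% and 0.237% for mRNAs, 0.338%, 0.710%, 0.877% and 0.269% for tRNAs and 0.616%, 0.857%, 0.683% and 0.379% for rRNAs (sh-NC 1 and 2, sh-circMYBL2 a and b). Quantile normalization gave an mRNA median of 0.23, with MT-RNR1 at 0.37, MT-RNR2 0.41, MT-ND1 0.23, MT-CO2 0.24, MT-ND4L 0.21, MT-ND5 0.51, MT-ND6 0.22 and MT-CYB 0.30. Voom called 54 genes and put MT-CO3 at -0.29 and MT-ND3 at -0.10. Leaving out 1 library gave 0 to 1042 genes called (999 without library b) and medians from -1.18 to -0.39. Without sh-NC library 1 or 2, MT-ATP6 was -0.33 or 5.02, MT-CO3 -0.81 or 1.21 and MT-ND3 -1.74 or 6.48; without library a or b, MT-ND4L was -1.29 or 0.056 and MT-ND5 -1.12 or 0.22.

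For translational efficiency 439 genes were called, 853 and 2 with pseudocounts of 0.1 and 5, 42 with a filter at 5, 0 under quantile normalization and 175 by voom. Leaving out 1 library gave 0 to 4895 genes, 0 to 7 members and mRNA medians from -0.19 to 0.68. Quantile normalization put MT-RNR1 at 0.0879 and MT-RNR2 at 0.15, and MT-ND1 was -0.0857 scaled to nuclear protein-coding reads and -0.0608 by voom. Without sh-NC footprint library 1 or 2, MT-ND3 was -0.0791 or 8.13 and MT-ND4 0.49 or -0.94; without the first MT-ND2 was 0.0468, and without the other MT-RNR2 was 0.11. Without library a or b, MT-ND1 was -0.23 or 0.42, MT-RNR2 -0.82 or 0.21 and MT-ND2 -0.77 or 0.35; MT-CO2 was -0.19 without a and MT-ND4 0.0934 without b. The cause of these shifts was not tested. Footprint depth, with 3 reads worth 105 RPKM for MT-ND3 in the smallest library, limits the short genes.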
